A study of Mus musculus with 4 samples.

Results

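The wild-type library is 1 of 4 RNA sequencing libraries in a study of the ubiquitin ligases Itch and WWP2 in mouse CD4+ T cells. It was chosen by its label alone and is described here across 21937 gene symbols. The cells were CD4+ T cells from the spleen of B6 wild-type mice aged 6 weeks, stimulated with PMA and ionomycin. The other libraries, from Itchf/f Cd4cre, WWP2-/- and double knockout animals of the same age and treatment, are not compared here. The number of mice, the length of the stimulation and the purity of the cells are not stated in any source used here. No library of resting cells was analysed here, so every value is a level after stimulation and none is a change caused by it. Since the group is a single library, the spread between mice is unknown and nothing was tested. Intervals are exact and at the 95% level, and they cover counting error only: the labels describe PCR amplification and no molecular identifiers, so copies of 1 molecule may be counted.

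PMA, a phorbol ester, activates protein kinase C and RasGRP, and ionomycin lets calcium into the cell, so that the pair bypasses the T cell receptor. Calcium drives NFAT into the nucleus through calcineurin, while protein kinase C leads to NF-kB and, through the MAP kinases, to AP-1. These factors switch on early response genes first and then cytokines, surface receptors and the growth programme.

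The library held 17627531 reads, so that 1 read stood for 0.0567 CPM (counts in 1000000 reads) and the limit set for a gene at 0 reads was 3 reads, or 0.170 CPM, which is the one-sided 95% limit rounded. The two-sided interval used for other genes reaches 0.209 CPM at 0 reads. CPM says how many reads a gene took, and TPM (transcripts in 1000000) divides the count by the gene's exon length as well, so levels of different genes are compared in TPM. In all, 10352 symbols reached 1 CPM, which is 47.2% of those listed. Higher thresholds were passed by fewer: 35.1% of the symbols reached 10 CPM and 11.0% reached 100 CPM. At the other end, 37.8% had 0 reads and 45.9% had 3 reads or fewer. The median level was 0.576 TPM over all symbols with a length and 28.8 TPM over those at 1 CPM or more.

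**Figure D1:**
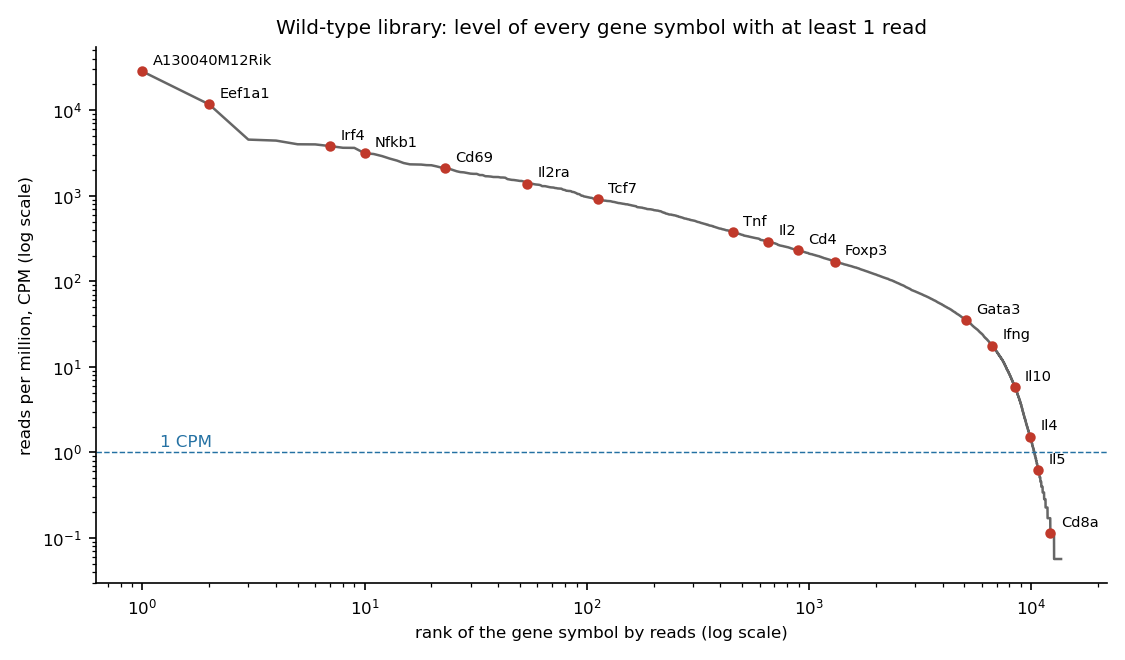
Level (CPM, log axis) of every gene symbol with at least 1 read against its rank by reads (log axis), in the wild-type library. Red points mark named genes, and the dashed line is 1 CPM. A130040M12Rik leads at 28461 CPM, Irf4 and Nfkb1 are among the first 10, and Il4, Il5 and Cd8a lie on the steep end of the curve.

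Windows of 4 genes are shown as examples. Il2 and Tnf encode secreted or shed cytokines, and Nr4a1 and Egr2 encode early transcription factors. Each gene was paired with the motif marked in it, and only a window that held the motif could be shown. That all 4 hold their motif is therefore no result. Each window runs 5′ to 3′ on the gene's strand from 250 bases before to 50 bases after the RefSeq start on GRCm38.p6. Il2 lies at chr3:37125905-37126204 (minus strand), Tnf at chr17:35201958-35202257 (minus strand) and Nr4a1 at chr15:101266596-101266895 (plus strand). Egr2 has 5 listed starts, and the window shown is the most downstream one that held the motif, at chr10:67537680-67537979 (plus strand). Capitals mark GGAAAA or its complement TTTTCC, the core that NFAT reads, in Il2 and Tnf, TGCGTCA, an AP-1-like element, in Nr4a1, and the CArG box, bound by serum response factor, in Egr2.
Il2: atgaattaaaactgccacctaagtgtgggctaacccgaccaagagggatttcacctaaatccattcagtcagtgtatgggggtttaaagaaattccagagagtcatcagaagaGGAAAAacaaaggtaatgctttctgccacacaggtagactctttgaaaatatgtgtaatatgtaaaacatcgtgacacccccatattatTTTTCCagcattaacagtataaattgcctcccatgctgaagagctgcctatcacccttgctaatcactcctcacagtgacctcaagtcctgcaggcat
Tnf: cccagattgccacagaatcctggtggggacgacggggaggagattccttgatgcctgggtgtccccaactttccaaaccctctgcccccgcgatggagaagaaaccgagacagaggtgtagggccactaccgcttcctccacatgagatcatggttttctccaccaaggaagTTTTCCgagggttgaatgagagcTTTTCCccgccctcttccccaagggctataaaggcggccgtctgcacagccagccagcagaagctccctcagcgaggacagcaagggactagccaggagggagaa
Nr4a1: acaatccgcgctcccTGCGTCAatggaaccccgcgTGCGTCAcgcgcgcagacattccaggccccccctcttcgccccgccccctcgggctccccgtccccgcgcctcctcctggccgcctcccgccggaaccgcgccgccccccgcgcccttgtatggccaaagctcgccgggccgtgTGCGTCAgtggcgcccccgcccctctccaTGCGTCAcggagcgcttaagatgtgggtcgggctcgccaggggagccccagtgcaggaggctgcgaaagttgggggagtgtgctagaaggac
Egr2: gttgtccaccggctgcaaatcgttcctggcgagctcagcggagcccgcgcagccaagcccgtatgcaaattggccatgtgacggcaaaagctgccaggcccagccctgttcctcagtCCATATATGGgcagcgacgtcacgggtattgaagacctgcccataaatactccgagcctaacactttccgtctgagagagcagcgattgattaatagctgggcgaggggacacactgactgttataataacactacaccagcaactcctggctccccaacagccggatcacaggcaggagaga

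Il2 held GGAAAA at 137 to 132 and, as TTTTCC, at 48 to 43 bases before the start. Tnf held TTTTCC at 78 to 73 and at 55 to 50 bases before it. Nr4a1 held TGCGTCA 4 times, and Egr2 held CCATATATGG at 133 to 124 bases before the start. All motifs were searched on both strands. Over the 27025 genes with a window of this length, 26.1% held GGAAAA, 2.42% held TGCGTCA and 1.81% held a CArG box in at least 1 window. Of the 25 immediate early genes at 1 CPM or more that have a window, 3 held GGAAAA, 3 held TGCGTCA and 3 held a CArG box. Of the 29 such ligand genes, 9 held GGAAAA and 0 held either of the others. TATAAA was in 10 of those 29 ligand genes, in 6 of the 25 early genes and in 15.7% of all genes. TGANTCA, where N is any base, was in 4 of the 29 ligand genes, 2 of the 25 early genes and 8.97% of all genes. TGACGTCA was in 2 of the 29, 2 of the 25 and 2.03% of all genes. These are matches of letters and do not show that a factor was bound.

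The most abundant symbol was A130040M12Rik, an unnamed gene model, with 501698 reads or 2.85% of the library (exact Clopper-Pearson interval 2.84% to 2.85%). It matched no entry of the supplied gene tables, so its length and its level in TPM were not computed. Eef1a1, the elongation factor that brings aminoacyl-tRNA to the ribosome, came next with 206145 reads and had the highest level per length, 17529 TPM. The 10 most abundant symbols took 7.13% of the reads, the first 100 took 20.9% and the first 1000 took 56.7%. It took 720 symbols to hold 50.0% of the reads.

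By reads, the head of the list joined the machinery of protein synthesis with genes of activated lymphocytes. Lcp1, the actin bundling protein L-plastin of blood cells, took 4537 CPM, the chaperones Hsp90ab1 and Hspa8 took 4417 and 4001 CPM, and Eef2, which moves the ribosome along the message, took 3987 CPM. Irf4, a transcription factor of activated lymphocytes, stood at 3809 CPM (3780 to 3837), rank 6 of the named genes. Ncl (nucleolin) stood at 3640 CPM, Ptprc, which encodes the phosphatase CD45, at 3630 CPM, and Nfkb1, the p105 and p50 subunit of NF-kB, at 3148 CPM. Other members of the first 30 by CPM were Cd53, a tetraspanin, the kinase gene Jak2 at 2212 CPM, the activation antigen Cd69 at 2118 CPM and the granule proteoglycan Srgn. Ranked per length the order changed: 21 of the first 30 by TPM were on the list of ribosomal protein genes, against 9 of the first 30 by CPM, and 16 genes were in both. Both counts include Gnb2l1, which encodes the ribosome-bound scaffold RACK1.

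Outside the ribosome, the highest levels per length after Eef1a1 were B2m, the light chain of MHC class I, at 6049 TPM, Hsp90ab1 at 4713 TPM and Hspa8 at 4494 TPM. Ptma followed at 4184 TPM, with H2-K1, a class I heavy chain, at 3924 TPM and Actb at 3809 TPM. Cd69 was at 3376 TPM, rank 32 of all named genes, and Irf4 at 2150 TPM, rank 65. H2-K1 and the ribosomal protein genes have close relatives or processed copies in the genome, so their share of reads is uncertain.

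Ligands were few and unequal. Of 52 cytokine genes 19 reached 1 CPM, a smaller share (36.5%) than that of all symbols (47.2%), and 18 had 0 reads (34.6%, against 37.8% of all symbols). Their median was 0.242 TPM over all members and 17.7 TPM over the 19. Of 32 chemokine genes 8 reached 1 CPM, with medians of 0.206 TPM and 16.1 TPM in the same order. TNF family ligands were read more widely, 11 of 18 at 1 CPM or more, with medians of 19.5 TPM and 132 TPM. In a bulk library a gene at a low level in many cells cannot be told apart from one at a high level in few cells.

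Mif, a cytokine that most cells make, had the highest level of the cytokine list at 978 TPM. Il2, the T cell growth factor, had 5139 reads or 292 CPM (284 to 300) and stood at 685 TPM, rank 194 of the named genes per length. Tgfb1 (568 TPM) and Il16 (310 TPM), both made as precursors, and Lif (156 TPM), of the IL-6 family, completed the 5 cytokine genes above 100 CPM, a level that 11.0% of all symbols reached. Lif was 14-fold higher per length than its relative Osm (12.0 to 16.4), or 32.3-fold by coding length.

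The cytokines that define effector subsets were lower. Ifng, the TH1 cytokine, had 312 reads and 39.4 TPM, and Tnf was 15.7-fold higher than it per length (14.05 to 17.7). Csf2 stood at 23.1 TPM, Il22 at 17.7 TPM, Il13 at 14.8 TPM and Il10 at 12.0 TPM. These 4 had between 103 and 129 reads each. Il21, made by follicular helper cells, had 97 reads (4.68 TPM). Il4 had 27 reads (1.53 CPM, 1.01 to 2.23), Il3 had 16 and Il5 had 11 (0.624 CPM, 0.312 to 1.12). Il17f had 2 reads, Il9 and Il6 had 1 each, and Il17a had 0.

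Among the TNF family ligands, Ltb, a membrane chain of lymphotoxin, was highest at 937 TPM, 4.65-fold above Lta per length (4.42 to 4.90), or 2.61-fold by coding length. Tnf had 6662 reads and 620 TPM, so that Tnf stood at 0.905 of the Il2 level per length (0.872 to 0.939). Cd40lg, through which CD4 T cells help B cells, was at 546 TPM and Lta at 202 TPM. Tnfsf8 (CD30 ligand) and Tnfsf11 (RANK ligand) were at 135 and 132 TPM. Fasl, the death ligand, was at 28.5 TPM. Cd70 and Tnfsf15 had 5 reads each, and Tnfsf13, Tnfsf18 and Eda had 0.

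Cxcl10, a ligand of CXCR3, had the most reads of the chemokines, 921 (92.4 TPM). Ccl5 (68.5 TPM) and Ccl4 (66.3 TPM), which attract T cells and monocytes, followed, and Xcl1 was at 19.5 TPM. Ccl4 was 5.20-fold higher per length than its neighbour Ccl3 (3.96 to 6.94). Ccl17 had 1 read and Ccl22 had 2, and Ccl2, Ccl6, Ccl7, Ccl8 and Ccl11, among others made chiefly by myeloid or stromal cells, had 0.

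**Figure D2:**
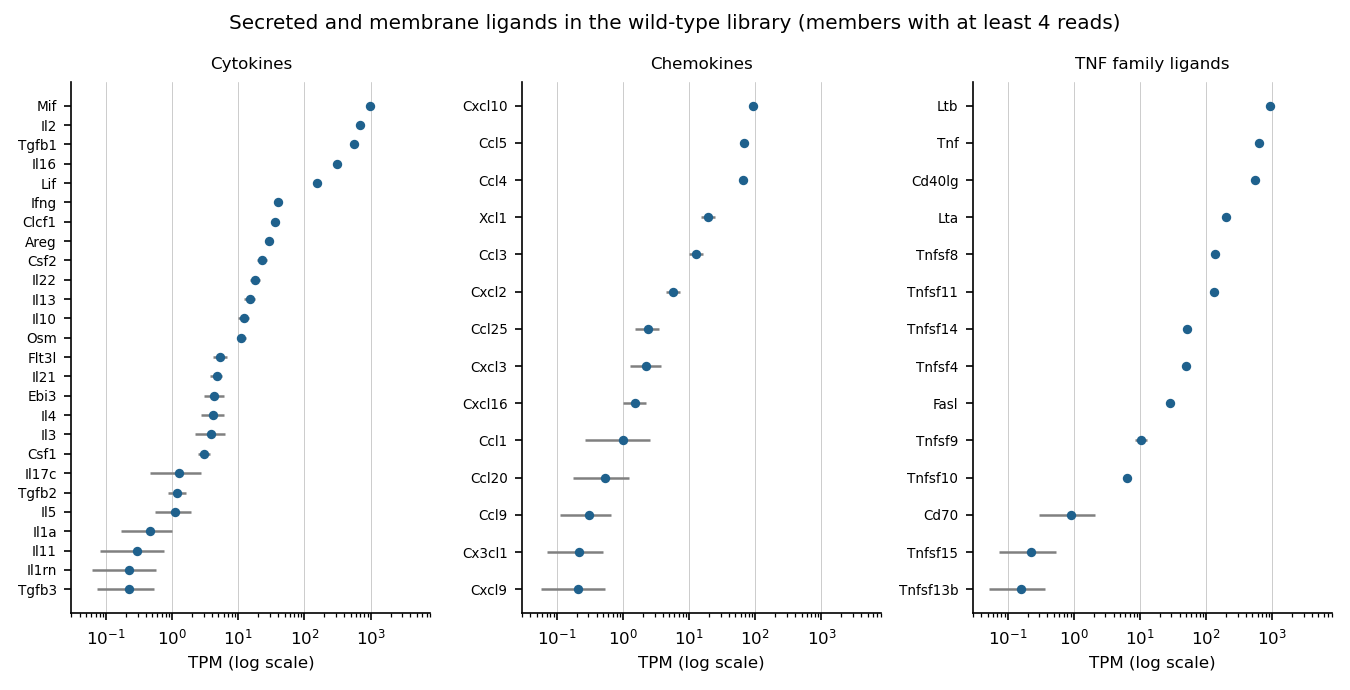
Level per length (TPM, log axis) of cytokine, chemokine and TNF family ligand genes with at least 4 reads in the wild-type library; points are levels and bars are exact Poisson 95% intervals. Mif, Ltb, Il2 and Tnf lie between 620 and 978 TPM, while Il4 and Il5 lie at 4.19 and 1.09 TPM.

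Early response genes were read almost throughout. Of 39 immediate early genes, 34 reached 1 CPM (87.2%, against 47.2% of all symbols) and 21 reached 100 CPM (11.0% of all symbols did). The list's median was 95.9 TPM. Cd69, which holds lymphocytes in tissue, led it. Nr4a1, an orphan nuclear receptor used as a marker of antigen receptor signals, had 24072 reads and 1371 TPM, 6.87-fold above Nr4a3 per length (6.70 to 7.06), or 3.36-fold by coding length. It was 14.3-fold above Nr4a2 (13.7 to 14.9). Zfp36l1, which speeds decay of AU-rich messages, was at 963 TPM and Myc, the growth regulator, at 953 TPM.

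The AP-1 genes were uneven. Junb stood at 744 TPM, 27.1-fold above Jun per length (24.9 to 29.5), or 14.9-fold by coding length, and 3.11-fold above Jund (2.97 to 3.25). Batf, a partner of IRF4 at composite sites, was at 314 TPM, Fosl2 at 117 TPM, Fos at 87.4 TPM, Fosb at 27.4 TPM and Jun at 27.5 TPM. Fosl2 was 1.34-fold above Fos per length (1.26 to 1.43), or 4.85-fold by coding length. Fos was 3.19-fold above Fosb (2.90 to 3.51), or 1.58-fold by coding length. Fosl1 was at 6.87 TPM, and Batf3 had 3 reads. Fos and Jun, often taken as the classic pair, were thus not the AP-1 genes with the highest levels here.

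Of the zinc finger factors, Egr1 was at 269 TPM and Egr2 at 216 TPM, a ratio of 1.25 (1.2 to 1.29). Egr2 was 7.78-fold above Egr3 per length (7.20 to 8.42), or 5.14-fold by coding length, and Egr4 had 8 reads. Early genes best known from neurons or fibroblasts were low: Arc had 173 reads, Npas4 12, Cyr61 4 and Ctgf 1.

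NF-kB subunits differed widely in level. Nfkb1 was at 2053 TPM, 4.06-fold above Nfkb2 per length (3.98 to 4.13) and 7.29-fold above Rela (7.08 to 7.51). Against Rel, which encodes c-Rel, the ratio was 24.2 by exon length (23.4 to 24.96) but 8.09 by coding length, so its size depends on the length used. Nfatc1 (110 TPM) and Nfatc3 (103 TPM) exceeded Nfatc2 (12.2 TPM), and Nfatc4 had 0 reads. Nfatc1 was 9.0-fold above Nfatc2 per length (8.30 to 9.77).

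Feedback inhibitors of the same pathways were all read: 31 of 31 reached 1 CPM and 17 reached 100 CPM, with a median of 83.9 TPM. Of all symbols 47.2% and 11.0% did. Nfkbid, a nuclear IkB protein, was highest at 1070 TPM, then Nfkbia, which holds NF-kB in the cytoplasm, at 903 TPM. Dusp2, a MAP kinase phosphatase, stood at 756 TPM and Tnfaip3, which encodes the deubiquitinase A20, at 507 TPM. Dusp5 (359 TPM) and Dusp6 (207 TPM) exceeded Dusp1 (54.6 TPM). Cish, a SOCS family member, was at 162 TPM, above Socs1 (38 TPM), Socs3 (21.2 TPM) and Socs2 (8.20 TPM). The lowest was Spry2 with 24 reads, against 2666 for Spry1.

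**Figure D3:**
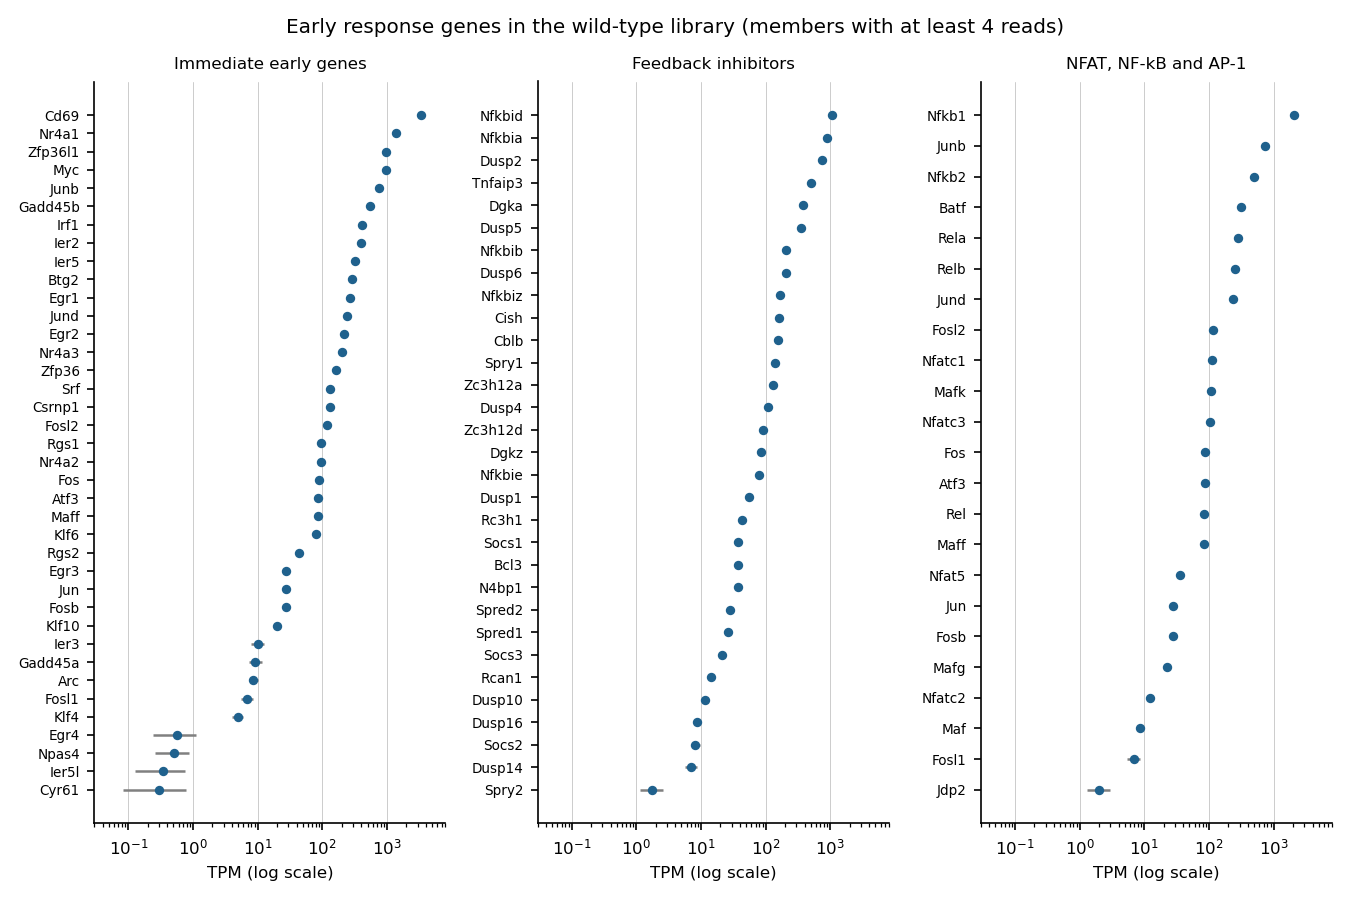
Level per length (TPM, log axis) of immediate early genes, feedback inhibitors and NFAT, NF-kB and AP-1 subunits with at least 4 reads in the wild-type library; bars are exact Poisson 95% intervals. Cd69 (3376 TPM), Nfkbid (1070 TPM) and Nfkb1 (2053 TPM) lead the 3 panels.

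The T cell receptor and its signalling partners were read throughout. Of the complex and its proximal signalling, 40 of 40 genes reached 1 CPM (47.2% of all symbols did), with a median of 136 TPM. The invariant chains Cd3e (216 TPM), Cd3g (197 TPM) and Cd3d (186 TPM) were near each other, and Cd247, the zeta chain, was at 109 TPM. Cd4 stood at 200 TPM. Ptprc (1907 TPM) and the adaptor Lat (1227 TPM) were highest. The scavenger-like receptor Cd5 was 2.74-fold above Cd3e per length (2.61 to 2.87). Zap70 was at 485 TPM and Lck at 345 TPM.

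Of 40 cytokine receptor genes, 30 reached 1 CPM (75.0%, against 47.2% of all symbols). Their median was 17.5 TPM over all 40 and 35.2 TPM over the 30. The chains of the IL-2 receptor led. Il2rg, the common gamma chain, was at 1297 TPM. Il2ra, which encodes CD25, the alpha chain of the high-affinity receptor, had 24411 reads and 715 TPM. Il2rg was 1.81-fold above Il2ra by exon length but 0.458 of it by coding length, so their order changed with the length used. Il2ra was 3.56-fold above Il2rb per length (3.46 to 3.67), or 8.03-fold by coding length. Il4ra stood at 181 TPM, Il21r at 171 TPM and Il27ra at 151 TPM.

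Il7r, the survival receptor of resting T cells, was at 37.7 TPM, 34.4-fold under Il2rg per length (32.1 to 36.8), or 20.2-fold by coding length. Il12rb2 (23.2 TPM), Il18r1 (12.3 TPM) and Il1rl1 (5.56 TPM), the receptors for IL-12, IL-18 and IL-33, were lower still. Il23r and Il1r1, of TH17 cells, had 8 reads each. Csf1r, Osmr, Il13ra1 and Il22ra1 had 0.

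Of 31 measured receptors for chemokines and lipid mediators, 24 reached 1 CPM (77.4%, against 47.2% of all symbols). Ccr7, which guides T cells to lymph nodes, was far above the rest at 972 TPM. It was 5.60-fold above Cxcr4 per length (5.35 to 5.87) and 48.5-fold above S1pr1, the receptor for leaving the node (43.9 to 53.7), or 31.8-fold by coding length. Ptger4, a prostaglandin receptor, was at 138 TPM and Adora2a, an adenosine receptor, at 76.9 TPM. Cxcr6 (76.2 TPM), Ccr4 (40.3 TPM), Ccr8 (36.9 TPM) and Cxcr3 (20.7 TPM), receptors of effector and regulatory cells, were read. Cxcr5, which leads to B cell follicles, had 43 reads, Ccr1 had 5 and Cx3cr1 had 7.

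Costimulatory and coinhibitory genes were widely read, 32 of 34 at 1 CPM or more (94.1%, against 47.2% of all symbols) with a median of 94.0 TPM. Cd2 was at 897 TPM, Tnfrsf4 (OX40) at 497 TPM, Icos at 375 TPM and Tnfrsf18 (GITR) at 327 TPM. Cd274, which encodes the ligand PD-L1, stood at 375 TPM as well. Icos was 1.97-fold above Cd28 per length (1.90 to 2.04). Btla (250 TPM), Ctla4 (213 TPM) and Tigit (119 TPM) led the inhibitory receptors. Ctla4 was 5.08-fold above Pdcd1 (4.63 to 5.59), and the inhibitory receptor genes Lag3 and Havcr2 had 49 and 45 reads. Tnfrsf4 was 2.29-fold above Tnfrsf9 by exon length but 0.892 of it by coding length.

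Adhesion genes included Ly6a at 1518 TPM, the integrin chain Itgb2 at 289 TPM, Cd44 at 184 TPM and Itgal at 171 TPM. Itgae had 63 reads, Itga2 16, Itgam 16, Itgax 12 and Itga1 4.

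All 61 genes on the list of lineage and T cell transcription factors reached 1 CPM, with a median of 53.1 TPM, and 29 reached 100 CPM. Of all symbols 47.2% and 11.0% did. Irf4 was highest at 2150 TPM, 3.77-fold above Irf8 per length (3.70 to 3.85). Tcf7, which encodes TCF-1 of naive and memory cells, followed at 942 TPM, 16.0-fold above its relative Lef1 (15.1 to 16.9). Stat5a, a mediator of IL-2 signals, was at 517 TPM, 3.20-fold above Stat5b (3.10 to 3.30). Hif1a (405 TPM), Satb1 (359 TPM) and Foxp1 (275 TPM) came after Irf1 (418 TPM).

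Of the factors that define helper subsets, Tbx21 and Gata3 kept their order under every length used, and Foxp3 and Tbx21 did not. Tbx21, which encodes T-bet of TH1 cells, stood at 147 TPM. It was 5.0-fold above Gata3 of TH2 cells per length (4.57 to 5.47), or 3.23-fold by coding length. Gata3 itself was at 29.5 TPM. Foxp3 of regulatory cells was at 112 TPM, which is 0.759 of Tbx21 by exon length (0.719 to 0.801) but 1.55 by coding length. Bcl6 of follicular helper cells was at 53.1 TPM, and Eomes had 162 reads. Zbtb7b (ThPOK), which fixes the CD4 fate, was at 19.5 TPM and Runx3, of the CD8 fate, at 25.1 TPM.

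**Figure D4:**
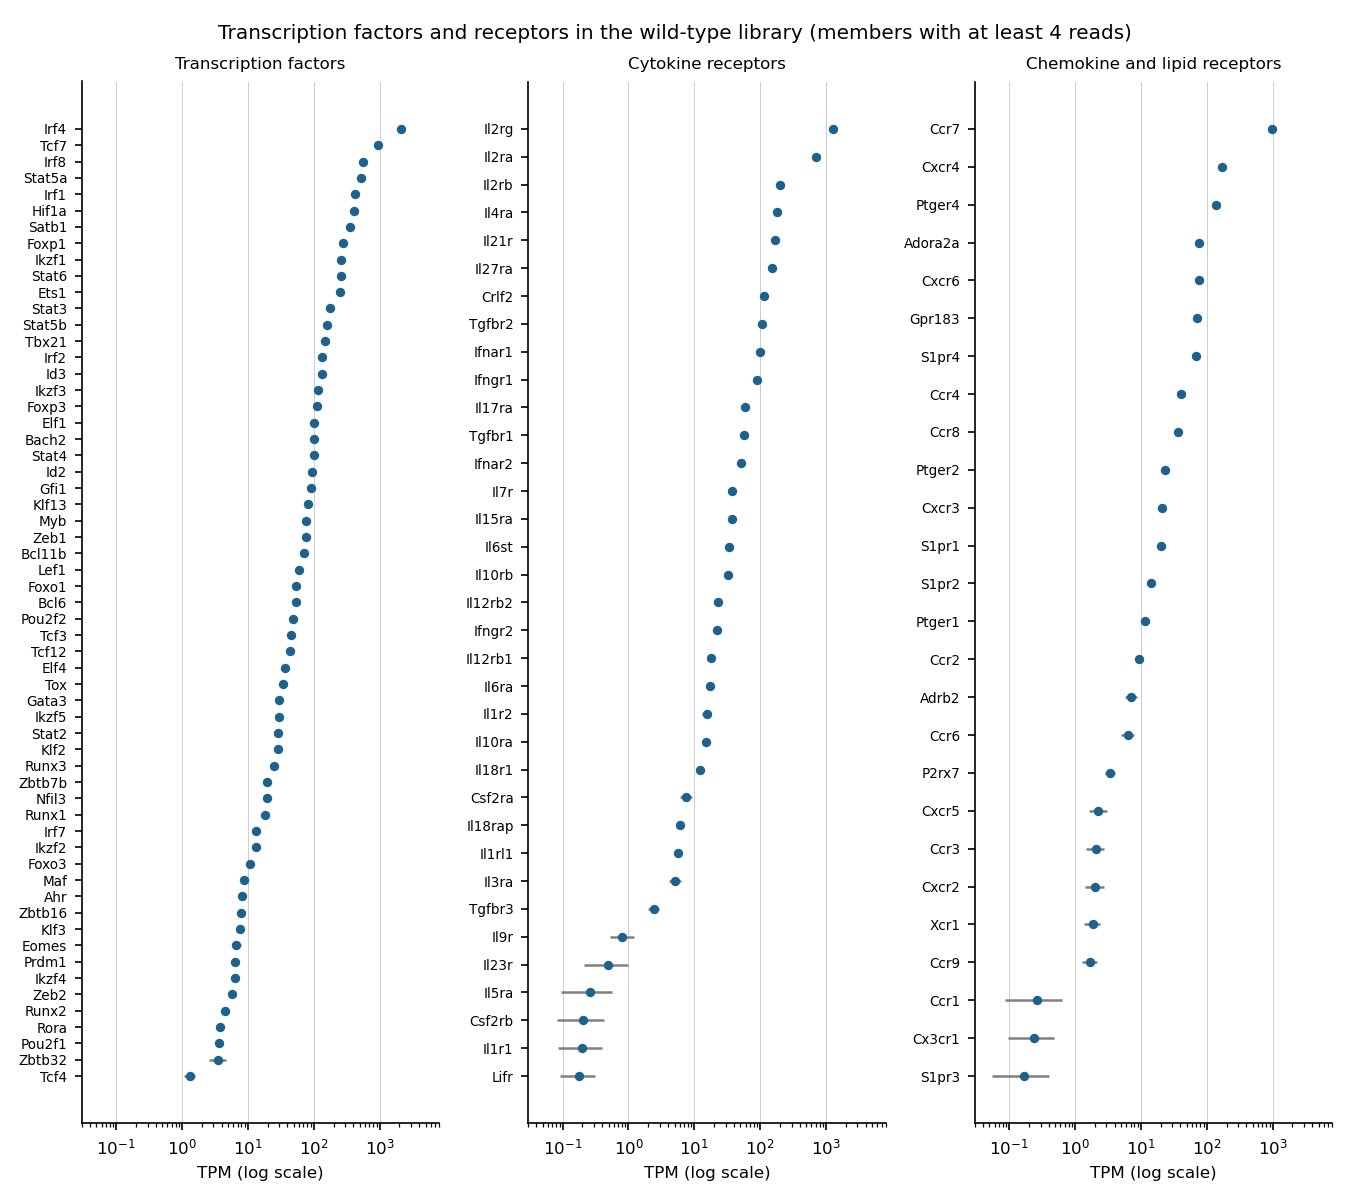
Level per length (TPM, log axis) of transcription factors, cytokine receptors and receptors for chemokines and lipid mediators with at least 4 reads in the wild-type library; bars are exact Poisson 95% intervals. Irf4 (2150 TPM) leads the factors, Tcf4 (1.31 TPM) is lowest, and Ccr7 (972 TPM) stands apart among the chemokine receptors.

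Read by subset, the helper lists overlap each other and mix broad with specific genes. TH1 genes reached 1 CPM in 16 of 17 cases (median 23.2 TPM) and TH2 genes in 13 of 16 (13.4 TPM, or 29.5 TPM over the 13). TH17 genes did so in 7 of 12 (58.3%, against 47.2% of all symbols), with medians of 2.65 TPM over the 12 and 6.29 TPM over the 7. Of the regulatory T cell list 19 of 19 did (26.8 TPM), among them Tnfrsf4, Il2ra and Ctla4, which activated helper cells also express. Lrrc32 was at 74.7 TPM and Folr4 at 84.6 TPM. Others were lower: Ikzf2 was at 13.3 TPM, Nrp1 at 9.63, Gpr83 at 7.10, Ikzf4 at 6.38, Itgae at 2.50 and Entpd1 at 1.37 TPM. Follicular helper genes reached 1 CPM in 13 of 14 cases (35.7 TPM), with Ascl2 at 0 reads. Genes shared with activated cells bear on how the regulatory T cell list can be read, and their part was not tested. Tnfrsf18 and Tigit of that list are also on the list of costimulatory and coinhibitory genes.

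Genes of the naive and quiescent state were read, 26 of 26 at 1 CPM or more (47.2% of all symbols were) with a median of 45.5 TPM. Slfn2, needed for quiescence, was at 1407 TPM, above Ccr7 and Tcf7, and Btg1, which restrains growth, was at 473 TPM. Other genes of rest were lower: S1pr1 (20.03 TPM) and Tsc22d3 (14.6 TPM) lay below the median of all genes at 1 CPM or more, 28.8 TPM, and Txnip (37.1 TPM) above it. Klf2, at 28.5 TPM, could not be told apart from that median by its counting interval.

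Genes of growth were read at high levels. Of the ribosome biogenesis list, 33 of 33 measured genes reached 100 CPM (11.0% of all symbols did), with a median of 298 TPM. Npm1 (2842 TPM), Ncl (1193 TPM) and the methyltransferase Fbl (1106 TPM) were highest, and Wdr12 lowest at 30.9 TPM. Chaperone genes reached 100 CPM in 28 of 33 cases (median 369 TPM), again against 11.0% of all symbols, and the list took 2.30% of all reads. The stress-inducible Hspa1a and Hspa1b, a near-identical pair whose reads may be shared or lost, had 82 and 111 reads, against 70528 for the constitutive Hspa8.

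Amino acid transport and synthesis genes all reached 1 CPM (27 of 27, median 134 TPM), as did 47.2% of all symbols. Odc1, the first enzyme of polyamine synthesis, was at 2017 TPM. Slc7a5 (741 TPM) and Slc3a2 (471 TPM) encode the chains of the leucine transporter, and Slc1a5 (819 TPM) encodes a glutamine carrier. The serine and one-carbon enzymes Shmt2 (859 TPM) and Phgdh (857 TPM) were at like levels. Slc7a11, the cystine transporter, was low with 203 reads (3.14 TPM).

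Some steps of glycolysis were read almost from 1 gene of a family and others from several. Ldha was 54.1-fold above Ldhb per length (46.2 to 63.7), and Ldhc had 0 reads. The symbol Pkm2 was at 1035 TPM, while Pklr, the gene of the liver form, had 1 read. A count per gene does not tell the splice forms under the symbol Pkm2 apart. Aldoa, which splits fructose bisphosphate, was at 1027 TPM. Slc2a1 was 3.31-fold above Slc2a3 (3.001 to 3.65), and the liver and muscle transporters Slc2a2 and Slc2a4 had 0 reads. The hexokinase genes were nearer each other, with Hk1 2.03-fold above Hk2 (1.89 to 2.18), as were Pfkp and Pfkl, with a ratio of 1.66 (1.57 to 1.76). Gapdh (149 TPM), Tpi1 (56.7 TPM) and Eno1 (5.81 TPM) were lower than Aldoa, Ldha and Pgk1 (717 TPM). Genes with processed copies elsewhere in the genome can lose reads in counting, so these levels are uncertain. In all 22 of 31 genes reached 1 CPM (71.0%, against 47.2% of all symbols), with a median of 18.4 TPM, or 69.0 TPM over the 22.

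Cell cycle genes were uneven. Ccnd2, the cyclin of G1 entry, had 20538 reads and 467 TPM, 6.82-fold above Ccnd3 per length (6.42 to 7.25), or 17.7-fold by coding length. Ccnd1 had 12 reads. Pcna was at 549 TPM and the helicase genes Mcm2 to Mcm7 between 56.2 TPM (Mcm7) and 89.7 TPM (Mcm6). Genes of mitosis and some of the G1 to S step were low. Ccne1 was at 1.98 TPM, E2f1 at 4.93 TPM, Cdc6 at 0.638 TPM and Rrm2 at 6.75 TPM. Mki67 was at 4.38 TPM, Ccnb1 at 2.82 TPM, Cdk1 at 1.16 TPM and Aurkb at 1.64 TPM. The list's median was 5.13 TPM, with 39 of 43 genes at 1 CPM or more (90.7%, against 47.2% of all symbols).

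Survival genes of the Bcl2 family were led by Bax (476 TPM), which promotes death, and Mcl1 (454 TPM), which opposes it. Mcl1 was 22.9-fold above Bcl2 per length (21.6 to 24.4), or 6.28-fold by coding length. Bcl2l1 was at 338 TPM and Bcl2l11, which encodes BIM, at 144 TPM. Bcl2a1b had 2282 reads, Bcl2a1d 433 and Bcl2a1a 1, but these are near-identical copies and the split is uncertain. Of 18 measured members 14 reached 1 CPM (77.8%, against 47.2% of all symbols), with a median of 32.0 TPM, or 67.3 TPM over the 14.

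Itch and Wwp2, the ligases the study was built around, were both read here. Itch had 2083 reads and 59.3 TPM and Wwp2 had 1363 reads and 44.7 TPM, a ratio of 1.33 (1.24 to 1.42). The list of NEDD4 family ligases and their adaptors also holds the ligases Cbl, Cblb, Peli1 and Rnf128 of other families. Of its 15 genes 13 reached 1 CPM (86.7%, against 47.2% of all symbols), with a median of 28.0 TPM. The adaptor Ndfip1, which activates these ligases, was at 384 TPM, 6.90-fold above Ndfip2 (6.43 to 7.41). Nedd4 itself had 45 reads, Rnf128, a ligase of anergic cells, 14, and Hecw1 0.

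Genes of the cytotoxic granule were uneven. Srgn was at 2784 TPM and Lamp1 at 186 TPM, and both are made by many cells. Gzmb had 767 reads (81.5 TPM), 31.6-fold above Gzma per length (19.6 to 54.5), or 51.2-fold by coding length. Prf1 had 23 reads and Gzmd, Gzme and Gzmg had 0. Of 16 genes 10 reached 1 CPM (62.5%, against 47.2% of all symbols), with a median of 3.01 TPM, or 10.4 TPM over the 10.

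Marker genes were read beside the label of the cells. All 10 genes of the CD4 T cell list were at 10 CPM or more, as were 35.1% of all symbols, from Zbtb7b with 611 reads to Cd5 with 12091. Most of them, such as the CD3 chains, Lck, Cd28, Thy1 and Cd5, are shared with CD8 T cells. Their count therefore marks T cells and does not check the CD4 label, on which only Cd4 and Zbtb7b bear. Of the 4 CD8 T cell genes 3 reached 1 CPM (75.0%, against 47.2% of all symbols), and 2 reached 2 CPM. They were led by Runx3 with 686 reads, a gene that is also on the TH1 list, and Gzmk had 21 reads. Cd8a had 2 reads and Cd8b1 127, so the chains of CD8 differed by 134-fold per length (36.4 to 1119), or 73.6-fold by coding length. Cd4 was 15.3-fold above Cd8b1 (12.8 to 18.4).

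Markers of other blood cells were read unevenly. For B cells, Pax5, Ebf1 and Blnk had 0 reads, Ms4a1 1 and Cd79a 34. In all 6 of 17 measured B cell genes reached 1 CPM (35.3%, against 47.2% of all symbols), with Pou2af1 at 1952 reads, a coactivator not confined to B cells. Of the NK list Ncr1, Klra8, Klra4 and Klra7 had 0, while Klrd1 had 115, Klrb1c 88 and Klrk1 63, so 5 of 10 reached 1 CPM, a share (50.0%) no smaller than that of all symbols. For macrophages and monocytes, Csf1r and C1qa had 0, Lyz2 had 1 and Cd68 had 52 (2 of 18 at 1 CPM or more). For neutrophils S100a8 and S100a9 had 0, and 0 of 11 reached 1 CPM. Their part in any level above was not tested.

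Erythroid genes had 1 of 12 at 1 CPM or more (8.33%, against 47.2% of all symbols). It was the transferrin receptor Tfrc with 15232 reads, which dividing cells use, while Hba-a1 and Klf1 had 0. Dendritic cell genes had 4 of 10 (40.0%), led by Ccr7, which T cells share, with Clec9a at 0 and Siglech at 9. Thymocyte genes had 3 of 8 (37.5%), the highest at 109 CPM, while Rag1 and Rag2 had 0 reads and Ptcra 4. Gamma delta and NKT cell genes had 2 of 5 (40.0%), the highest at 15.7 CPM. Mast cell, basophil and eosinophil genes had 2 of 12 (16.7%), Kit with 429 reads and Hdc with 19, while Mcpt8 and Fcer1a had 0.

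Genes of unrelated tissues were nearly silent. For hepatocytes, pancreas and the germ line, 0 of 12, 0 of 12 and 0 of 11 genes reached 1 CPM, against 47.2% of all symbols, and Alb, Ins2 and Prm1 had 0 reads. Stromal genes had 1 of 14, Tagln with 47 reads, and Col1a1 had 1 read. Endothelial genes had 2 of 12, with Pecam1, shared with leukocytes, at 1299 reads and Cdh5 at 0. Platelet genes had 1 of 9, Itga2b with 32 reads, and Pf4 had 0. Pluripotency factors Pou5f1 and Sox2 had 0 reads, and 2 of 11 genes of the list reached 1 CPM, Utf1 with 129 reads and Eomes.

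Some genes of other tissues were read. Mbp, named for myelin, had 19575 reads and 368 TPM, while the neural genes Gfap, Rbfox3 and Snap25 had 0. Immune cells read the same locus as Golli transcripts, and a count per gene does not tell these from myelin transcripts. Epcam, an epithelial adhesion gene, had 346 reads (25.6 TPM), while Krt5, Krt14 and Cdh1 had 0. Tnnt2 and Actn2, of muscle, had 90 and 73 reads, while Myod1, Myog and Myh6 had 0.

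**Figure D5:**
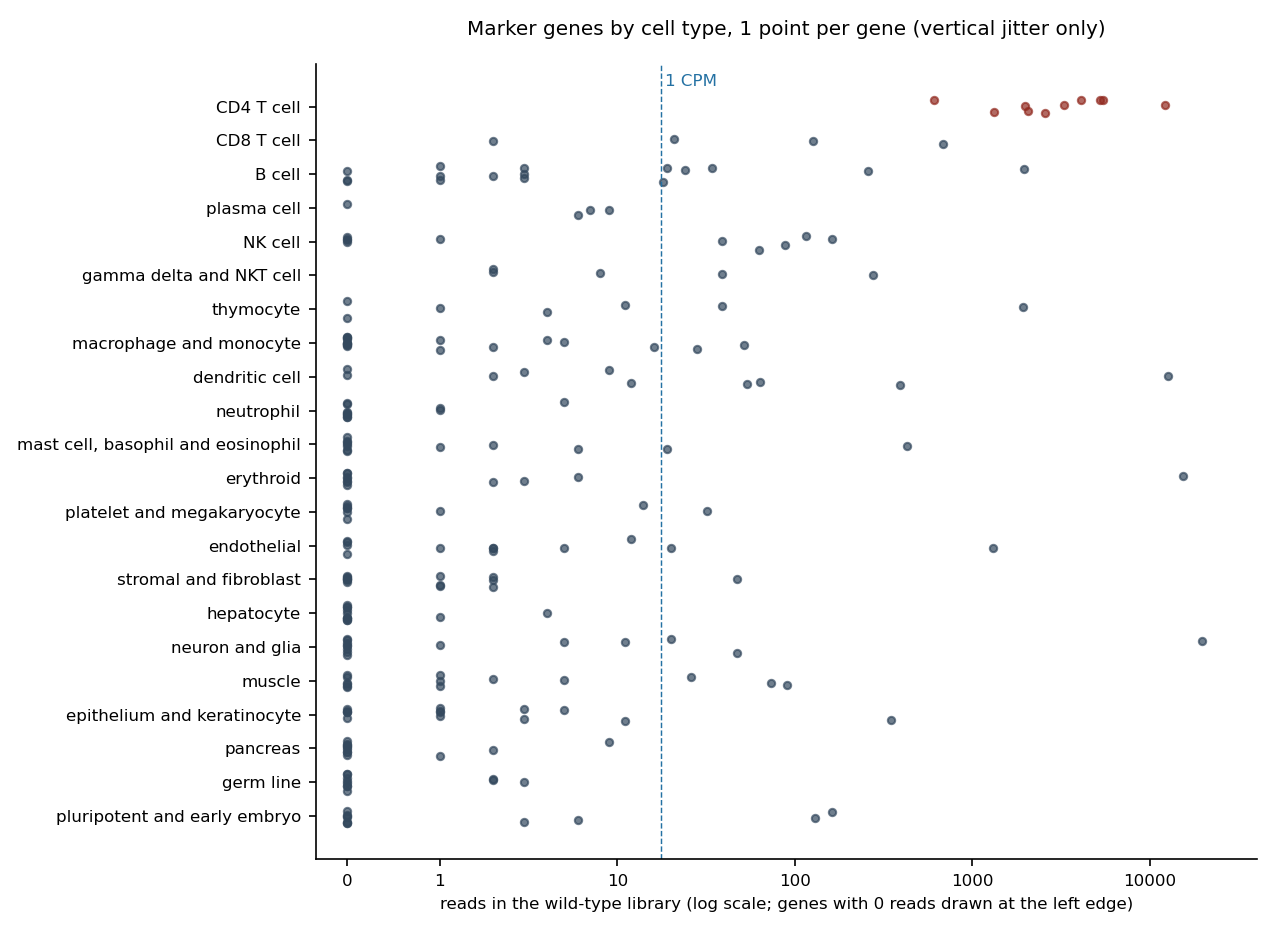
Reads in the wild-type library (log axis, with 0 drawn at the left) of marker genes, 1 row per cell type and 1 point per gene; the dashed line is 1 CPM. The 10 genes of the CD4 T cell list, most of them shared with CD8 T cells, lie between 611 and 12091 reads. Most markers of other lineages lie at 3 reads or fewer, as do 45.9% of all symbols. Those above include shared genes such as Ccr7, Tfrc, Pecam1 and Mbp, and lineage genes such as Cd8b1, Klrd1 and Kit. At 3 reads or fewer lie only 1 of 4 CD8, 1 of 4 plasma cell, 3 of 8 thymocyte, 4 of 10 dendritic and 2 of 5 gamma delta and NKT genes. Of the 4 plasma cell genes, 0 reached 1 CPM.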

How the data were processed

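The values were counts of reads per gene symbol, deposited by the authors without normalization. The submitters' processing notes list TopHat 1.4.1, HTSeq 0.7.1, Bowtie 1.0.0 and build mm9, with no role or order. No source used here states the annotation, strand setting or read length, so overlapping genes and near-identical copies can share or lose reads. The wild-type column (17627531 reads) was scaled to its total (CPM). TPM used the union of exons in the GENCODE M21 basic annotation of GRCm38. Lengths were found for 98.3% of symbols, holding 96.8% of reads. Symbols were matched by name or RefSeq synonym, and no coordinates were converted. Poisson intervals for levels and conditional binomial intervals for the ratios of 53 gene pairs are exact and were tested on simulated data. There were 29 lists of function and 22 of cell types, and 928 of their 949 genes were in the table. Members, lists, pairs and the named genes were chosen with earlier results of these data known. Pairs and 5 further lists were written after the values were seen. The rule for naming took the 30 genes highest by CPM or TPM, up to 12 of the highest per list, defining genes at 3 reads or fewer, and fixed lineage genes. Not all of these are named in the text. The choice among them, A130040M12Rik and the other members named were settled after the values were seen. Alternatives were other detection thresholds, edgeR 4.0.16 TMM and DESeq2 1.42.0 size factors from all 4 libraries (R 4.3.3), other gene lengths, and totals without ribosomal protein genes (no mitochondrial chromosome genes were listed). Other steps used Python 3.11.15, scipy 1.17.1, pandas 2.3.3, numpy 2.4.6 and, for figures, matplotlib 3.10.9. Some members counted in the lists are not reported here by name and are not drawn in the figures.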

Additional observations from a re-analysis of the deposited data

How the results depend on the processing

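No paired analysis was possible because each genotype gave 1 library and no groups were compared. Replicates could not be left out for the same reason. The 10352 genes at 1 CPM or more stayed within 1.5 times of that number at 0.5 CPM, at 2 CPM, under TMM and DESeq2 scaling and among matched symbols. Without ribosomal protein genes the first 10, 100 and 1000 symbols took 7.76%, 20.01% and 54.6% of the remaining reads. By coding length 14 of the 30 genes highest by TPM stayed among the first 30. At 2 CPM the lists of B cells, macrophages, mast cells, platelets and endothelium had 2, 1, 1, 0 and 1 genes. At 0.5 CPM those of plasma cells, platelets, epithelium and pancreas had 1, 2, 2 and 1. All other list counts stayed within 1.5 times under these settings. Medians over members at 1 CPM or more, which drop the low members by construction, were 17.7 TPM for cytokines, 16.1 for chemokines, 132 for TNF ligands, 35.2 for cytokine receptors, 17.1 for chemokine receptors, 29.5 for TH2, 6.29 for TH17, 10.4 for cytotoxic granule, 69.0 for glycolysis and 67.3 for Bcl2 family genes. Of the 53 ratios, 3 changed direction by coding length: Foxp3 over Tbx21 (1.55), Il2rg over Il2ra (0.458) and Tnfrsf4 over Tnfrsf9 (0.892). None of the 53 did by the longest transcript. The ratio left its counting interval in 38 more cases by coding length and in 20 by the longest transcript, since the setting replaces the length divisor. At this depth a gene at 0 reads may still be expressed at a level under the limit of 3 reads, or 0.170 CPM (0.209 CPM by the two-sided interval).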

Other observations

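The lists in this section were written after the values were seen. Interferon-inducible GTPases, which act against pathogens inside cells, were high in the wild-type library. Of 18 measured genes 16 reached 1 CPM and 10 reached 100 CPM, against 47.2% and 11.0% of all symbols, with a median of 163 TPM. Gbp2 was at 1793 TPM, Ifi47 at 1229 TPM, Igtp at 698 TPM, Irgm1 at 634 TPM and Gbp5 at 521 TPM. Ifng itself had 312 reads. Mx1 and Mx2, best known from the type I interferon response, had 26 and 13 reads. Of 18 other interferon-stimulated genes, many of them known from that response, 15 reached 1 CPM (83.3%) and 0 reached 100 CPM. Their median was 8.33 TPM. No cause of the difference between the lists was tested. Ifi35 (955 reads) and Ifit2 (756 reads) were the most read of them, and Rsad2 had 17 reads. Tgtp1 had 0 reads and its near-identical copy Tgtp2 had 848, so that split is uncertain.

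Of all symbols 47.2% reached 1 CPM and 11.0% reached 100 CPM. GIMAP GTPases, which support lymphocyte survival, all reached 1 CPM (8 of 8, median 288 TPM), from Gimap7 at 56.6 TPM to Gimap4 at 1805 TPM. The cytosolic aminoacyl-tRNA synthetases, which load amino acids for translation, all reached 100 CPM (20 of 20, median 306 TPM), from Qars at 136 TPM to Nars at 863 TPM. Ribosomal protein genes, with Gnb2l1 counted among them, took 8.12% of the reads, with 81 of 87 at 1 CPM or more and a median of 2282 TPM. Of long non-coding RNAs on the earlier list, Gas5 was at 889 TPM, Malat1 at 175 TPM and Neat1 at 11.7 TPM, while H19 had 0 reads.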
